A study of Homo sapiens with 6 samples.

Results

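The 26S proteasome was examined through its transcripts in the cell line NCI-H69, which was derived from small cell lung cancer. Genes whose symbol consists of PSM, a letter from A to G and a number were taken as members, which gave 46 of the 17170 genes in the table. They were sorted by textbook role into 7 core alpha, 7 core beta, 3 immunoproteasome, 6 ATPase, 11 non-ATPase, 4 activator and 7 assembly genes and 1 inhibitor gene. No gene in the table bears the symbol of the testis subunit PSMA8 or the thymus subunit PSMB11, so these are not analysed here.

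The labels describe stable NCI-H69 cells in 2 groups. In the knockout group, CRISPR/Cas9 had been directed at the open reading frame of MIR7-3HG that encodes SCRMP (3 samples), and cells of the control group carried a non-targeting guide RNA (3 samples). All were grown in RPMI-1640 with fetal bovine serum, and the labels do not say whether a group is 1 clone. No column of the table bore a name stated for a knockout sample (0 of 3), so every value below comes from the 3 control libraries and no comparison between genotypes was made. Levels are in TPM, a measure of transcripts that divides reads by length and sums to the same fixed total of 1000000 in each library, and are given as mean ± SD over the 3 libraries. The labels call the libraries biological replicates without saying whether they came from separate cultures, so the SD measures the spread between these libraries, which may be technical. Libraries held 20941185 to 22477571 estimated reads.

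The proteasome degrades proteins tagged with ubiquitin. Its 20S core is a barrel of stacked rings, with alpha subunits outside and beta subunits inside, and the beta subunits PSMB5, PSMB6 and PSMB7 carry the active sites. The 19S cap recognises ubiquitin chains, removes them and threads the substrate into the core with a ring of ATPases. Interferon induces PSMB8, PSMB9 and PSMB10, which replace the constitutive active subunits in newly built particles called immunoproteasomes, and the cap subunits PSME1 and PSME2. In lung cancer, immunoproteasome levels are of interest because these particles cut peptides for presentation on major histocompatibility complex (MHC) class I.

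The cell type in the label was checked against marker genes. Of 9 measured neuroendocrine markers, 1 was detected, meaning at least 1 TPM in all 3 libraries: NCAM1, at 25.7 TPM ± 3.66. INSM1, DLL3, CHGA, SYP, NEUROD1, UCHL1, SCG2 and SCG3, which neuroendocrine small cell lung cancer usually expresses, each had a mean under 1 TPM. All 10 mesenchymal and fibroblast markers were detected, against 66.5% of all genes in the table, with a median of 92.9 TPM. These marker levels go against a neuroendocrine identity, so NCI-H69 is used here only as the label of these libraries. Leukocytes carry immunoproteasomes without stimulation. Of 10 measured leukocyte markers 3 were detected, with a summed level of 10.9 to 13.3 TPM per library, of which CORO1A gave 7.49 TPM ± 1.03. CD74 was at 0 in all 3 libraries, and the defining marker PTPRC (CD45) had 0.517 TPM ± 0.343.

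The sequences below are promoter windows of the interferon-inducible members, shown because the comparison of immunoproteasome with constitutive subunits turns on these genes. Each window runs from 250 bases before to 50 bases after an annotated transcript start (RefSeq, GRCh38.p14) and is written 5′ to 3′ on the gene's strand. Capitals mark the letters GAAA, any 2 bases and GAAA again on either strand, the core of the interferon-stimulated response element, which interferon regulatory factors are known to bind. PSMB8 has another window with no match, and PSMB9 is shown because its single window has none.
PSMB8 (chr6:32843998-32844297, minus strand): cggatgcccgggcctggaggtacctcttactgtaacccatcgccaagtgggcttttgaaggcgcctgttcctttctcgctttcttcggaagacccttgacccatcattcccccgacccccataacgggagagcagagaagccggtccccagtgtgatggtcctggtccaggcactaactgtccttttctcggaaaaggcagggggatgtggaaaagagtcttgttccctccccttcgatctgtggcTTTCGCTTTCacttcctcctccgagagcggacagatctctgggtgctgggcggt
PSMB9 (chr6:32853942-32854241, plus strand): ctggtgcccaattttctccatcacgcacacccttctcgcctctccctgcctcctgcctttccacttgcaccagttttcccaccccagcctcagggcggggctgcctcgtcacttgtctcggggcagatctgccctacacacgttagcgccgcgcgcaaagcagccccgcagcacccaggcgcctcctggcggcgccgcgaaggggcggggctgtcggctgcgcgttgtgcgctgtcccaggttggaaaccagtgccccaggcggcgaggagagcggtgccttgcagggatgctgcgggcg
PSMB10 (chr16:67936801-67937100, minus strand): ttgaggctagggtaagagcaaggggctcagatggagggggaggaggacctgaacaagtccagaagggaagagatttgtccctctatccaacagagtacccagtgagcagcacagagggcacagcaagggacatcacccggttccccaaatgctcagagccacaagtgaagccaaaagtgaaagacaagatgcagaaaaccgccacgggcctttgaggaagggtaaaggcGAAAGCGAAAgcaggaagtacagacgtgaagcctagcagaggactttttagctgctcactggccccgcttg
PSME1 (chr14:24135944-24136243, plus strand): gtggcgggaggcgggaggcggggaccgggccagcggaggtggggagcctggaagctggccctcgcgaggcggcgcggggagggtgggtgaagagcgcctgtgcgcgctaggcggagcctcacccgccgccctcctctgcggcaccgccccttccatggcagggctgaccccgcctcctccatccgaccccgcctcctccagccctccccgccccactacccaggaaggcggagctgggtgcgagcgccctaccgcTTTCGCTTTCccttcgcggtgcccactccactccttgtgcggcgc
PSME2 (chr14:24146561-24146860, minus strand): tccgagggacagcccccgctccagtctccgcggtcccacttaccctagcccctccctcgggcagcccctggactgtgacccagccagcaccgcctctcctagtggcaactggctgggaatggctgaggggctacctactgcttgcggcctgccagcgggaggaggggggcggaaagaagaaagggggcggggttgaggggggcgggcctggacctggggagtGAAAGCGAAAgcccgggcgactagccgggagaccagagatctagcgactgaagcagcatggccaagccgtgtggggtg

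The match begins 4 bases before the start in PSMB8, 21 before it in PSMB10, 28 before it in PSME2 and 5 after it in PSME1. The core was held by 7 of the 40 members that had a window, which are these 4 genes with PSMA4, PSMB4 and PSMG4. It occurred in 3.57% of all 35116 promoter windows of the same length and in 4.05% of the 13708 genes of the table that had a window. Both windows of PSMB5 lacked it, and the other constitutive catalytic genes, PSMB6 and PSMB7, had no window to search. These matches are letters in a window and show no binding. Levels of genes with the match were not alike: PSMB10 had 21.7 TPM ± 1.02 and PSMB8 64.99 TPM ± 3.69, while PSME1 and PSME2 had 222 TPM ± 11.8 and 224 TPM ± 12.3.

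All 46 members were detected, against 66.5% of all genes in the table. All 46 had a mean of at least 10 TPM, a level that 44.1% of all genes reached. A mean level of 50 TPM or more was seen in 39 members, against 15.7% of all genes. The median member had 145 TPM ± 5.41, where the median gene of the table had 6.87 TPM. Together the members held 0.876% of all TPM. By group, the medians were 374 TPM ± 20.3 for core beta and 322 TPM ± 17.8 for core alpha genes, 157 TPM ± 6.04 for activators, 145 TPM ± 2.44 for ATPases and 144 TPM ± 7.15 for non-ATPase genes. The immunoproteasome and assembly groups were lower, at 57.7 TPM ± 1.81 and 55.4 TPM ± 5.42. The ATPase and non-ATPase medians differed by less than the spread between libraries.

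**Figure D1:**
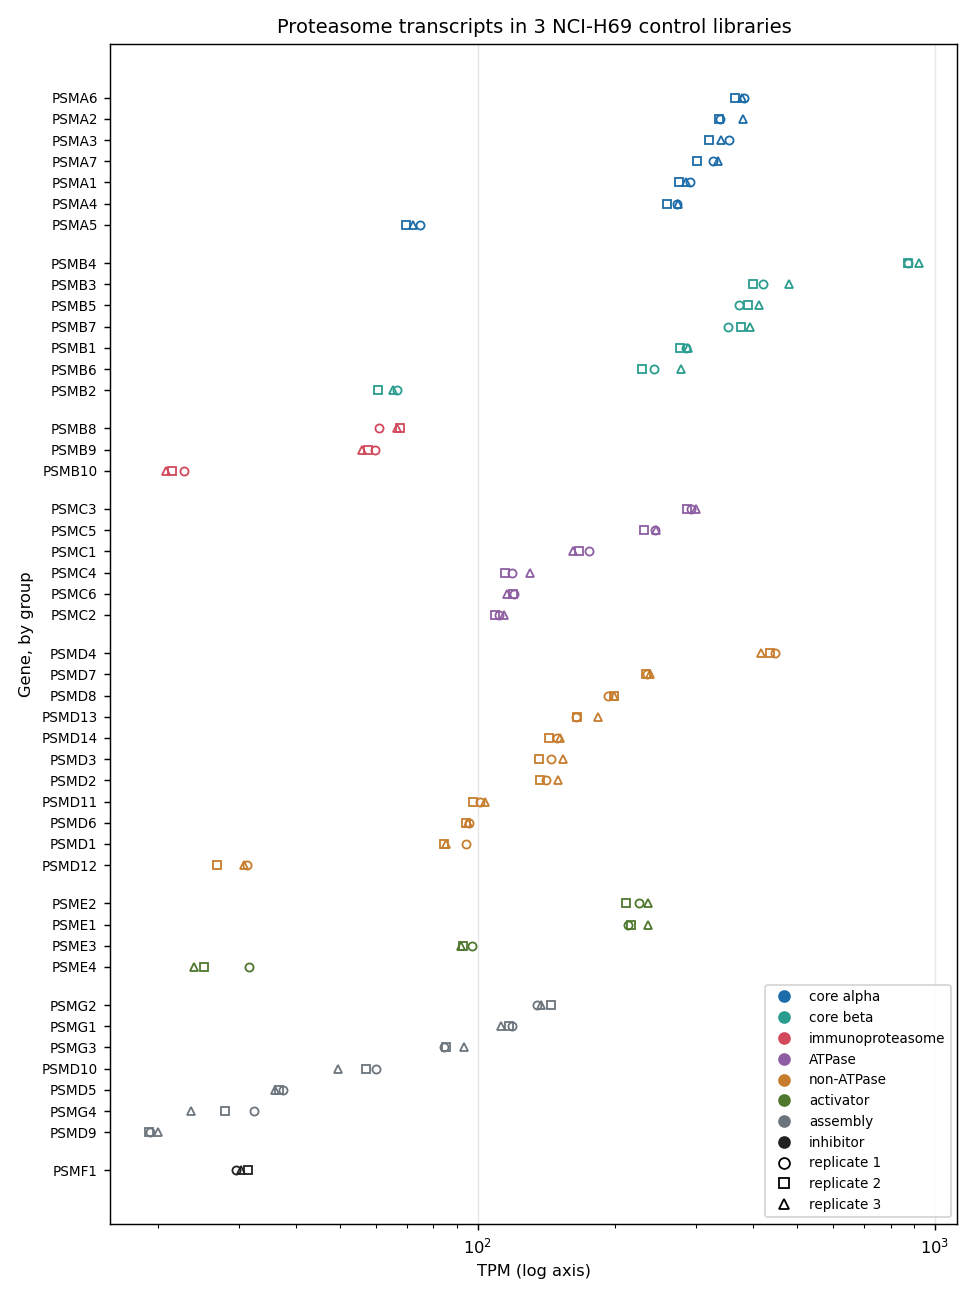
TPM of the 46 members (log axis) in the 3 control libraries, 1 symbol per library, with genes grouped by role and sorted by mean. PSMB4 stands highest at 889 TPM and PSMD9 lowest at 19.4 TPM, and PSMA5, PSMB2 and PSMD12 lie apart from the rest of their groups.

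All but 1 of the 7 alpha subunits, which form the gated outer ring, lay close together, between 268 TPM for PSMA4 and 375 TPM for PSMA6. PSMA6 had 382, 365 and 378 TPM in control replicates 1, 2 and 3, and PSMA2 had 339.5, 338 and 380.4 TPM, with overlapping ranges. PSMA3 (338 TPM ± 17.8) and PSMA7 (322 TPM ± 17.8) also overlapped. PSMA1, at 284 TPM ± 7.67, lay above PSMA4 in every library. PSMA5 stood apart with 74.8, 69.5 and 72.1 TPM, and its highest library lay below the lowest library of every other alpha gene. The fold between the highest and lowest alpha gene was 5.20 in TPM and 1.80 in estimated reads.

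Beta subunits ranged more widely. PSMB4, a structural subunit of the inner ring, had 872, 872 and 923 TPM and was the highest member in each library. PSMB3, another structural subunit, followed at 433 TPM ± 41.3. PSMB2, also structural, had 66.7, 60.6 and 65.3 TPM, below every library of the other 6 beta genes. PSMB1 lay between them at 284 TPM ± 6.34. Within each library the highest core gene stood 13.9-fold ± 0.702 above the lowest. Of 13 pairs of neighbours in the order of the 14 core genes, 8 had overlapping ranges over the 3 libraries, so these ranges do not resolve much of the order between the extremes. Ranges ignore that genes are measured in the same libraries. Within libraries, PSMB3 lay above PSMB5 and PSMA3 above PSMA7 in all 3, while PSMA6 and PSMB7 changed order. The lowest Spearman correlation of the 14 levels between libraries was 0.94.

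The interferon-inducible catalytic subunits were expressed, at levels below their constitutive counterparts in every library. PSMB8, the chymotrypsin-like immunosubunit, had 60.8, 67.6 and 66.6 TPM, and PSMB5, which it replaces, had 372, 391 and 413 TPM. The log2 ratio of PSMB8 to PSMB5 was -2.59 ± 0.054. No library of one gene overlapped with any of the other.

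PSMB9, the immunosubunit at the caspase-like site, had 59.5, 57.6 and 55.9 TPM, and its counterpart PSMB6 had 243, 228 and 279 TPM. Their log2 ratio was -2.11 ± 0.18, again without overlap. PSMB10, the immunosubunit at the trypsin-like site, was the lowest of the 3 with 22.8, 21.4 and 20.8 TPM, and its counterpart PSMB7 had 353, 376 and 393 TPM. This pair differed most, with a log2 ratio of -4.11 ± 0.15. Of the transcripts of each pair, the immunosubunit made up 18.8% ± 1.86 for PSMB9, 14.2% ± 0.458 for PSMB8 and 5.50% ± 0.532 for PSMB10. The 3 immunosubunits together gave 12.5% ± 0.687 of the summed catalytic transcripts. These are shares of transcripts and not of assembled particles. In bulk RNA, fewer cells that express an immunosubunit and less of its RNA per cell cannot be told apart. No test was run on these ratios, which are 3 within-library values for each pair.

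**Figure D2:**
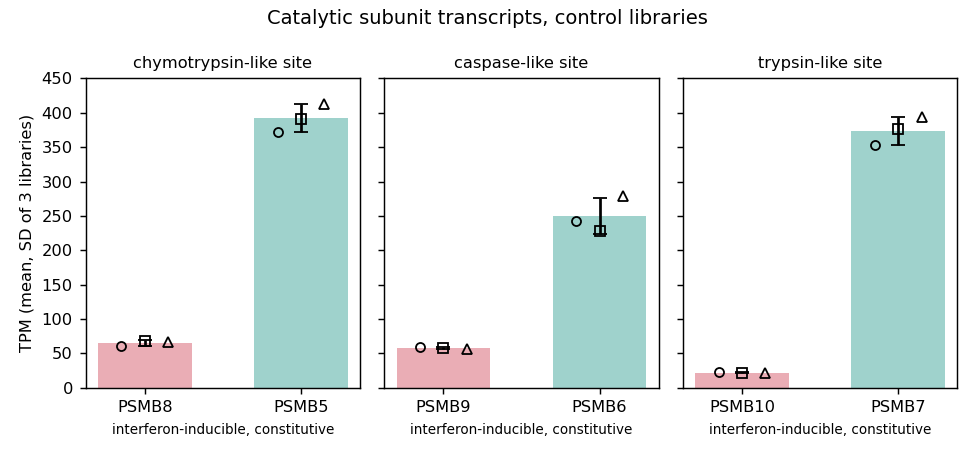
TPM of each interferon-inducible catalytic subunit (red, left) and its constitutive counterpart (green, right) in the control libraries, with bars for the mean, whiskers for the SD and 1 symbol per library. PSMB8, PSMB9 and PSMB10 lie at 64.99, 57.7 and 21.7 TPM, below PSMB5, PSMB6 and PSMB7 at 392, 250.03 and 374 TPM.

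PSMB8 and PSMB9 lie in the class II region of the MHC on chromosome 6, at 32840717 to 32844679 and 32854192 to 32859851 (GRCh38.p14), 9513 bases apart, next to the peptide transporter genes TAP1 and TAP2. TAP1 had 43.4 TPM ± 0.544 and TAP2 22.2 TPM ± 1.05, so the 4 neighbouring genes lay between 22.2 and 64.99 TPM. PSMB10 lies on chromosome 16, at 67934506 to 67936850. Of 17 measured genes of interferon signalling and antigen processing, 16 were detected, against 66.5% of all genes in the table. The list had a median of 22.2 TPM ± 1.05. The class I light chain gene B2M had 1319 TPM ± 7.62. The transcription factor IRF1, which acts on immunosubunit genes, had 43.4 TPM ± 4.43, and the class I transactivator NLRC5 had 1.67 TPM ± 0.137. The class II transactivator CIITA, the undetected gene, had 0.100 TPM ± 0.0173. All 7 interferon receptor and kinase genes were detected, against the same 66.5%, from JAK2 at 4.74 TPM ± 0.860 to IFNGR1 at 103 TPM ± 4.77.

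The 6 ATPases, which unfold substrates, spanned 2.62-fold in TPM and 2.60-fold in estimated reads. PSMC3 was highest with 293, 286 and 299 TPM and PSMC2 lowest with 111, 109 and 114 TPM. PSMC5 (240.1 TPM ± 8.10) and PSMC1 (168 TPM ± 7.04) lay between, and the ranges of PSMC4 (121 TPM ± 7.94) and PSMC6 (118 TPM ± 2.45) overlapped. PSMC1 has 13 pseudogenes annotated under its symbol in GENCODE release 29, so its reads could be split with these copies.

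Among the 11 non-ATPase subunits, the ubiquitin receptor gene PSMD4 was highest with 446, 436 and 416 TPM. The lid gene PSMD12 was lowest with 31.2, 26.8 and 30.7 TPM, below the lowest library of every other non-ATPase gene. The deubiquitinase PSMD14, which cuts off ubiquitin chains at the entrance, had 148 TPM ± 3.99 and its lid partner PSMD7 235 TPM ± 2.55. The base scaffold genes PSMD2 and PSMD1 had 143 TPM ± 6.72 and 87.97 TPM ± 5.45. Among the other lid genes PSMD8 had 197 TPM ± 3.40, PSMD13 171 TPM ± 10.98 and PSMD3 145 TPM ± 8.71. PSMD11 and PSMD6 were lower, with 101 TPM ± 3.09 and 95.2 TPM ± 0.761, and their ranges did not overlap. Of 16 pairs of neighbours in the order of the 17 ATPase and non-ATPase genes, 5 overlapped.

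The activators spanned 8.31-fold in TPM, 1.73-fold in estimated reads and 10.5-fold in reads per coding length. PSME1 and PSME2, the interferon-inducible subunits of the 11S cap, assemble with each other. PSME2 had 225, 211 and 235 TPM and PSME1 213, 217 and 235 TPM, and their ranges overlapped. The 2 genes lie 4403 bases apart on chromosome 14, at 24136194 to 24138962 for PSME1 and 24143365 to 24146610 for PSME2. In TPM they stood above the median member in every library. In estimated reads they stood below it, with 2582 for PSME1 and 2155 for PSME2 against a member median of 3493, and per coding length PSME1 ranked 22 and PSME2 27 of 46. PSMB8, PSMB9 and PSMB10 ranked 36 or lower on all 3 scales. PSME3, the nuclear relative, had 94.00 TPM ± 2.72. PSME4, which encodes the large nuclear cap PA200, was lowest with 31.6, 25.2 and 23.9 TPM, and replicate 1 lay above the others. PSMF1, which encodes the core-binding protein PI31, had 29.6, 31.4 and 30.3 TPM.

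Among assembly factors, the 20S chaperone genes PSMG2 and PSMG1 were highest in TPM. PSMG2 had 135, 144 and 138 TPM and its partner PSMG1 116 TPM ± 3.28, and their ranges did not overlap. The second chaperone pair was unequal, with 87.7 TPM ± 5.02 for PSMG3 and 32.5, 27.9 and 23.6 TPM for PSMG4. Among the chaperones of the 19S base, PSMD10 (gankyrin) had 55.4 TPM ± 5.42, PSMD5 36.8 TPM ± 0.735 and PSMD9 19.1, 19.1 and 20.01 TPM, the lowest of all members in each library on the TPM scale. In estimated reads and in reads per coding length PSMB10 was the lowest member, and PSMD9 ranked 44 and 43 of 46. Outside the members, all 12 genes of a list of proteasome partners were detected, against 66.5% of all genes in the table. Among them was PSMC3IP (8.58 TPM ± 1.05), whose product shares the name of an ATPase without being a proteasome subunit. The core maturation factor POMP had 140.4 TPM ± 5.62, the ubiquitin receptor ADRM1 152 TPM ± 6.95 and the small lid subunit SEM1 283 TPM ± 8.22, within the range of the non-ATPase genes. The proteasome-bound deubiquitinases USP14 and UCHL5 had 74.3 TPM ± 4.54 and 33.99 TPM ± 1.90, and the assembly factor PAAF1 39.1 TPM ± 3.39.

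The level of some subunits, PSMA5 and PSMB2 among them, depended on the length by which their reads were divided. Estimated reads, FPKM and library totals together give the length that the deposited values imply for each gene. Implied lengths ran from 713 bases for PSMB3 to 8095 for PSMF1. PSMA5 and PSMB2, the lowest core genes in TPM, had the longest implied lengths of the core, 3762 and 4376 bases, for coding sequences of 723 and 603 bases in GENCODE release 29. No other core gene exceeded 1385 bases. In estimated reads these genes did not stand apart: PSMB2 had 3463, 3424 and 3772 reads and PSMA5 3338, 3379 and 3579.9, against 2233, 2286 and 2851 for PSMB6, the core gene with the fewest. Reads are not divided by length, so a longer transcript gives more of them at an equal transcript level. They do not show that the TPM of PSMB2 and PSMA5 are too low.

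Divided by coding length in place of the implied length, PSMB2 had 269 reads per coding kilobase in a library scaled to 1000000 reads and PSMA5 217, where the median core gene had 249. PSMB2 then ranked 7 among the 46 members, where it ranked 37 in TPM, and PSMF1 ranked 20, where it ranked 41. This scale divides the reads of a whole transcript by its coding part alone. It therefore raises a gene by the ratio of implied to coding length, which was 7.26 for PSMB2 and 9.96 for PSMF1. The rise of both follows from that division and does not show which scale is closer to the true level. The fold between the highest and lowest core gene was 3.63 on this scale and 4.01 in reads. PSMB4 remained the highest core gene on each scale. PSMD12, by contrast, stayed among the lowest 19S genes per coding kilobase (53.9), beside PSMD6 (53.1) and PSMD1 (58.1).

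The core and the 19S cap also compared differently. The median of the 14 core genes was 2.27-fold that of the 17 cap genes in TPM (327 TPM ± 14.6 and 144 TPM ± 7.15). It was 1.89-fold in reads per coding length and 1.09-fold in reads, which are not divided by any length. Reads favour longer transcripts, and the median implied length was 953 bases for core and 1705 for cap genes. Across these 31 genes, log2 mean TPM and log2 implied length had a Pearson correlation of -0.84 and a Spearman correlation of -0.84. Within the 14 core genes the values were -0.88 and -0.43, and across all 46 members -0.55 and -0.50. The same Pearson correlation was -0.47 across the 7577 genes with at least 10 TPM. Both measures share the implied length, since TPM are divided by it, and the genes are not independent, so these correlations are descriptions only. Implied lengths of 6 members exceeded their longest coding transcript in the basic set of GENCODE release 29, which may not be the annotation the authors used. Which transcript ends these cells use was not measured.

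**Figure D3:**
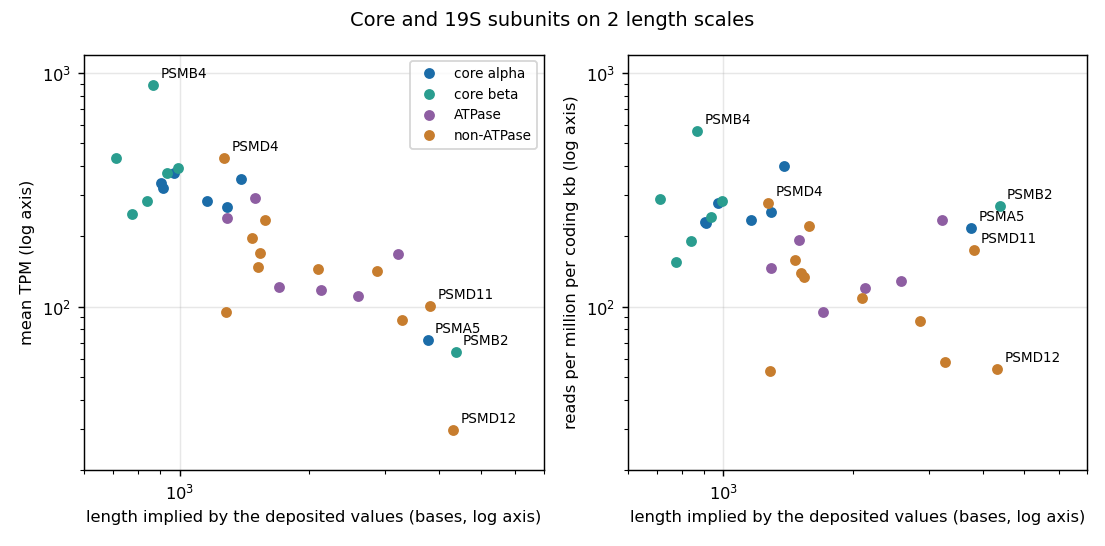
Mean TPM (left) and scaled reads per kilobase of coding sequence (right) of the 31 core and 19S genes against the length implied by the deposited values, all on log axes. PSMB2 and PSMA5 lie at the lower right of the TPM plot at 64.2 and 72.2 TPM, and among the other core genes in the coding length plot at 269 and 217.

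Unequal levels of subunit genes were also found in other complexes. The SD of log2 TPM across genes was 1.02 for the 31 core and cap genes, 0.82 for 8 CCT chaperonin genes, 1.11 for 9 COP9 signalosome genes and 1.24 for 13 genes of the translation factor eIF3. In log2 reads the SD was 0.55 for the core and cap genes, 0.77 for CCT, 0.86 for COP9 and 0.79 for eIF3. COP9 and eIF3 are built on the same subunit plan as the 19S lid. These SDs are over the genes of each complex, were not tested against each other and are given as descriptions.

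Members were repeatable between libraries. The coefficient of variation (CV, the SD as a percentage of the mean) had a median of 3.94% over the 46 members and ranged from 0.799% for PSMD6 to 15.8% for PSMG4. Genes with at least 10 TPM had a median of 6.11%. A CV over 10% was found for 3 members, PSMG4, PSME4 and PSMB6, against 23.4% of the genes with at least 10 TPM. Among the 39 members with at least 50 TPM 1 exceeded it, PSMB6, against 10.7% of the genes at that level. The CV falls with level, so the second share is the closer background. PSMD6 had 95.9, 94.4 and 95.3 TPM, a CV below the 2.55% that counting error alone gives at its 1544 reads. An SD from only 3 libraries can fall below counting error by chance.

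The spread of PSMG4 differed by scale. Its TPM was highest in replicate 1 and lowest in replicate 3, with a CV of 15.8%, while its CV in reads scaled to library totals was 7.45%. Its implied length was 777, 789 and 899 bases in these libraries, a range of 15.6%, so the deposited values divide its reads by a different length in each library. PSMC2 and PSMA4 followed with implied lengths that varied by 3.25% and 2.73%, and the other 43 members varied by at most 2%. In reads a CV over 10% was found for PSME4 (13.4%), PSMB6 (11.6%) and PSMB3 (10.8%), whose CV in TPM was 9.53%.

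**Figure D4:**
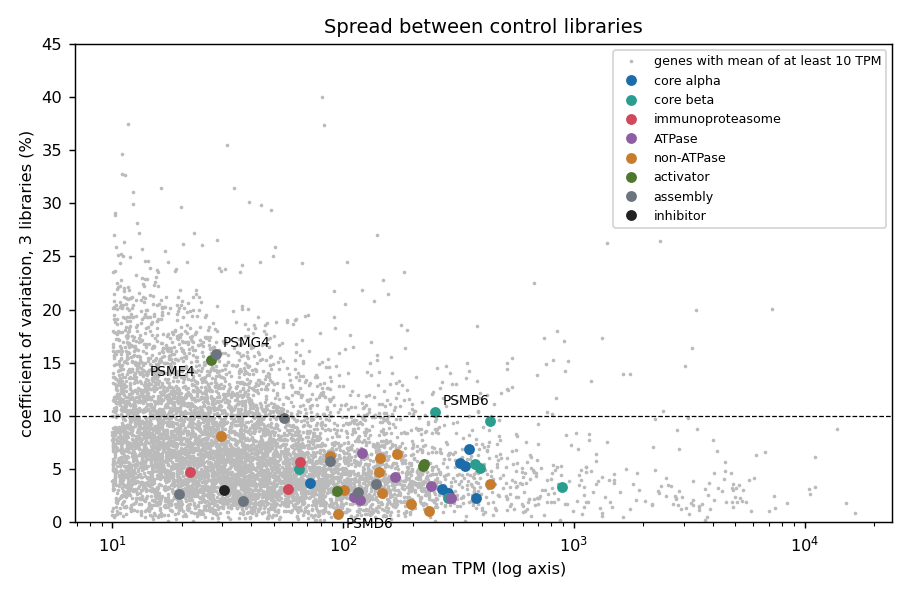
Coefficient of variation over the 3 control libraries against mean TPM (log axis) for genes with at least 10 TPM (grey) and the members (coloured by group), with a dashed line at 10%. PSMG4 and PSME4 lie highest among the members at 15.8% and 15.3%, and PSMD6 lowest at 0.799%.

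Some of the spread was shared. Control replicate 3 had the highest TPM of the 3 libraries for 23 of 46 members, against 27.9% of the genes with at least 10 TPM. Replicate 1 was highest for 19, against 54.6%, and replicate 2 for 4, against 17.5%. Core beta genes followed this most closely, with 6 of 7 highest in replicate 3 and PSMB2 the exception. All 14 core genes were higher in replicate 3 than in replicate 2, against 41.5% of the genes with at least 10 TPM, with a median log2 difference of 0.081 for alpha and 0.081 for beta genes. The median difference of all genes at that level was -0.026. Of the 3 immunosubunits 0 were higher in replicate 3 than in replicate 2, with a median of -0.043, and of the 7 assembly genes 2 were. Replicates of a group have no order, and genes of a library are not independent because its TPM share a fixed total. These shifts were not tested and describe the libraries only. The sample titles name no batch, and a batch difference between libraries was not tested.

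Genes that act on the proteasome or feed it were also expressed. NFE2L1, the transcription factor that raises proteasome genes when the proteasome is impaired, had 197 TPM ± 12.4, and its relative NFE2L2 179 TPM ± 3.39. NGLY1 and DDI2, the enzymes known to process NFE2L1 into its active form, had 76.97 TPM ± 9.85 and 2.30 TPM ± 0.682, and the extraction ATPase VCP 211 TPM ± 9.24. All 10 genes of this list were detected, against 66.5% of all genes in the table, and DDI2 was the lowest. The ubiquitin precursor genes UBB and RPS27A had 2325 TPM ± 67.5 and 4385 TPM ± 129.99. Ubiquitin precursor genes share near-identical coding sequence, so their reads could be split between copies and these values are uncertain. The activating enzyme UBA1 had 120.1 TPM ± 3.92 and UBA6 15.5 TPM ± 2.16. Among shuttle factors, which carry ubiquitinated proteins to the cap, RAD23B had 215 TPM ± 9.37, and UBQLN1 and UBQLN2 176 TPM ± 4.42 and 17.3 TPM ± 0.754.

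Promoter windows of the 40 members that had one, 49 windows in all, were searched on both strands for 5 further cores. TGACNNNGC, the core of the antioxidant response element to which NFE2L1 is known to bind, was held by 15 of 40 members (37.5%), against 18.5% of the genes of the table with a window. Those with it had a median of 121 TPM and those without 143 TPM. It was held by 3 of 4 activators and 4 of 6 assembly genes, and by 2 of 10 core genes. The ETS core CCGGAAG was held by 14 (35.0%, against 18.5%), among them 3 of 6 ATPase and 6 of 10 non-ATPase genes with a window. CCAAT, the box of factor NF-Y, was held by 19 (47.5%, against 42.6%). The gamma-activated site TTCNNNGAA was held by 7 (17.5%, against 8.71%) and the E-box CACGTG of the MYC family by 3 (7.5%, against 11.6%). Motifs were not masked for overlap with each other, the shares were not tested, and a window without a match says nothing about the factor.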

How the data were processed

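Poly(A) RNA of NCI-H69 cells was sequenced by BGI on a DNBSEQ-T7 from libraries that keep the strand, per the labels' protocols. The tools HISAT2, StringTie and DESeq2 and the build GRCh38 come from the list given per the submitters' processing notes. For these tools, versions, roles and the annotation used were not given in the sources used here. Deposited values were the authors' TPM per library, which sum to a fixed total over the table, FPKM per library and estimated counts of reads per library, all per the file headers. Columns were given to samples by name: 12 columns of 3 further libraries match no sample and were used in no step, and 0 knockout columns were found, so the knockout comparison was not made.

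Genes were matched to RefSeq (GRCh38.p14) by gene number, 46 of 46 members, and promoter windows to 40. Implied length is estimated reads divided by FPKM and the library's total reads. Coding length is the longest coding sequence in the basic set of GENCODE release 29. Reads of near-identical copies can go to either copy: 12 members have 32 annotated pseudogenes, and PSMA3, PSMB8, PSMD6 and PSMG3 have antisense genes, whose reads are kept apart only if counting used the strand. Library pairs differed by more than sampling noise (chi-square per degree of freedom 6.18 to 15.8). Depth limits PSMB10 and PSMG4 most, at 254 and 288 reads.

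Members, groups, lists and motifs were chosen with earlier results of these data known. Values per library are given for the catalytic subunits, the highest and lowest member of each group and the members with extreme CV, and a few others were chosen after their values were seen. A few list genes are not reported here. No test was run: values are mean ± SD of 3 libraries. The group median and motif code was tested on simulated data. Alternatives were FPKM, estimated reads, reads per coding length, TPM without ribosomal protein and MTRNR2L genes, 1 added before log2, other minimums, PSMD5, PSMD9 and PSMD10 placed with the non-ATPase genes, and leaving out each library. Figures were drawn with matplotlib 3.10.9, and tables computed with numpy 2.4.6, pandas 2.3.3 and scipy 1.17.1 under Python 3.11.15.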

Additional observations from a re-analysis of the deposited data

How the results depend on the processing

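Of 102 alternative values of 13 results, 78 moved by less than the spread between libraries, 24 moved by more, and 0 changed a sign that had exceeded that spread. Most of the 78 could not have moved. FPKM and TPM without ribosomal protein and MTRNR2L genes scale all genes of a library alike, which leaves ratios within a library as they were. A mean over 2 of 3 libraries always lies within 1 SD of the mean over 3. The ATPase, non-ATPase and activator medians lay within that spread, and folds, shares and counts carry no sign, so none of these could change one. Nearly all shifts came from the length by which reads are divided. In estimated reads, group medians relative to the median of all members (log2) were 0.26 for core alpha, 0.16 for core beta, -2.30 for the immunoproteasome, 0.12 for ATPases, 0.092 for non-ATPase genes, -0.47 for activators and -1.76 for assembly factors. In reads per coding length, chosen after seeing the data, they were 0.67, 0.84, -1.60, -0.12, -0.16, -0.066 and -1.17 in the same order, and in TPM 1.15, 1.37, -1.32, -0.0082, -0.0032, -0.0083 and -1.39. The log2 ratio of PSMB8 to PSMB5 was -2.33 in reads and -2.40 per coding length, and that of PSMB9 to PSMB6 -1.79 and -1.66. The fold within the core was 4.01 and 3.63. With PSMD5, PSMD9 and PSMD10 placed with the non-ATPase genes, the assembly median was -0.52 and the non-ATPase median -0.27. The members' share was 0.703% of reads and 1.27% of TPM without 96 ribosomal protein and MTRNR2L genes. Leaving out each library gave -2.62 to -2.57 for PSMB8, -2.17 to -2.01 for PSMB9 and -4.19 to -4.04 for PSMB10. No paired analysis was possible because the control libraries had no partner: of the 3 knockout samples, 0 had a column.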

Other observations

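More members lay on chromosomes 14 and 17 than on any other. Chromosome 14 held 7 of 46 (15.2%, against 3.10% of the genes of the table) and chromosome 17 another 7 (15.2%, against 5.93%). On chromosome 14 these were PSMA3, PSMA6, PSMB5, PSMC1, PSMC6, PSME1 and PSME2, with levels from 118 TPM for PSMC6 to 392 TPM for PSMB5. The shares were not tested. The genes with the highest TPM among all core and among all cap subunits, PSMB4 and PSMD4, lie 132094 bases apart on chromosome 1, at 151399573 to 151401937 and 151254734 to 151267479 (GRCh38.p14), a pair chosen after their values were seen. All 4 measured genes between them had at least 10 TPM, against 44.1% of all genes, from ZNF687 at 13.5 TPM to SELENBP1 at 193.8 TPM, with a median of 61.1 TPM, against 6.87 TPM for the median gene of the table.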
